A study of Mus musculus with 10 samples.

Results

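The natural killer (NK) receptor genes examined here are Klrb1c, Klrd1, Klrk1, Klrc1, Klrc2, Klre1, Klra1, Klra7 and Klrg1, which lie on mouse chromosome 6. A region of open chromatin was assigned to a gene when it overlapped the gene body or lay within 50 kb of the transcription start (GENCODE annotation of GRCm38, the mm10 build of the files). This gave 101 regions out of 94823 in the whole series, of which 42 lay near more than one of the 9 genes. The 101 regions fell into 5 separate stretches of the chromosome, with 19 regions around Klrg1, 22 around Klrb1c, 46 around the neighbours Klre1, Klrd1, Klrk1, Klrc2 and Klrc1, 3 around Klra7 and 11 around Klra1. In chromosome order, the genes were Klrg1 (ENSMUSG00000030114.8, chr6:122270596-122282882, minus strand), Klrb1c (ENSMUSG00000030325.16, chr6:128778485-128789215, minus strand), Klre1 (ENSMUSG00000050241.8, chr6:129577905-129585827, plus strand), Klrd1 (ENSMUSG00000030165.16, chr6:129591782-129598775, plus strand) and Klrk1 (ENSMUSG00000030149.15, chr6:129610323-129623864, minus strand). They were followed by Klrc2 (ENSMUSG00000052736.15, chr6:129647496-129660689, minus strand), Klrc1 (ENSMUSG00000030167.15, chr6:129666015-129678973, minus strand), Klra7 (ENSMUSG00000067599.13, chr6:130218605-130233322, minus strand) and Klra1 (ENSMUSG00000079853.5, chr6:130363917-130386874, minus strand). Accessibility had been measured by ATAC-seq, in which the Tn5 transposase inserts sequencing adapters where DNA is open, in 10 libraries of invariant NKT (iNKT) cells enriched with PBS57-loaded CD1d tetramers from the thymus of young adult, age-matched mice. The 4 groups were iNKT1 cells of BALB/c mice (n = 2), iNKT1 cells of SKG mice (n = 2), iNKT2 cells of BALB/c mice (n = 3) and iNKT2 cells of SKG mice (n = 3). SKG mice share the BALB/c background and carry a hypomorphic mutation of Zap70, the kinase that relays the signal of the T cell receptor, and the 2 subsets were sorted as CD27+ CD122+ (iNKT1) and CD27+ CD122- (iNKT2) cells. The labels do not say whether the libraries of a group came from separate mice, so the p-values measure the spread between these libraries only, which may be technical.

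The NK gene complex encodes C-type lectin-like receptors that set the threshold at which NK cells and some T cells respond. Klrd1 encodes CD94, which pairs with the products of Klrc1 (the inhibitory NKG2A) or Klrc2 (the activating NKG2C) to read the nonclassical MHC molecule Qa-1, whereas Klrk1 encodes NKG2D, an activating receptor for stress-induced ligands. Klre1 encodes a partner of the Klri1 and Klri2 products, Klra1 and Klra7 encode the inhibitory Ly49A and Ly49G receptors for classical MHC class I, Klrg1 encodes an inhibitory receptor for cadherins, and Klrb1c encodes NKR-P1C, the NK1.1 antigen of C57BL/6 mice. Thymic iNKT1 cells are the iNKT subset known for NK receptors, T-bet and interferon-gamma, and iNKT2 cells for high PLZF and IL-4. The reads were aligned to the C57BL/6J reference although the cells were BALB/c, whose Ly49 haplotype holds fewer genes, and only uniquely placed reads were kept.

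Library totals ranged from 14988590 to 36342635 insertions, and values below are CPM, counts of insertions brought to a common library size with TMM factors (0.893 to 1.19), which correct for differences in composition. The labelled subsets were compared with markers at transcription starts. The 4 iNKT1 genes (Tbx21, Ifng, Cxcr3 and Il2rb) summed to 258 to 286 CPM in the iNKT1 libraries and 83.2 to 121 in the iNKT2 libraries, and the 4 T cell genes (Cd3e, Cd3d, Cd247 and Lck) to 219 to 240 and 138 to 197. Il2rb encodes CD122, by which the subsets were sorted, so its part of the iNKT1 sum is no separate check of the labels. That part was the largest, with means at its start regions of 63.08 and 93.41 in BALB/c iNKT1 and 38.05 and 27.84 in BALB/c iNKT2 cells. Tbx21, Ifng and Cxcr3 were also lower in BALB/c iNKT2 cells, with log2 changes of -1.653, -2.812 and -2.096. The 4 iNKT2 genes (Zbtb16, Il4, Gata3 and Ccr7) did not sum higher in iNKT2 cells at their starts: in BALB/c mice they were lower there (170.2 to 178.0, against 188.0 to 206 in iNKT1), and in SKG mice the ranges overlapped (214 to 219, against 211 to 228). Of these, Ccr7 was higher in SKG iNKT2 (35.1 to 47.5) than in SKG iNKT1 cells (12.5 to 17.1). Of 4 NK cell genes, Eomes and Klri2 had no start region, and Ncr1 and Gzma summed to 16.6 to 18.7 in iNKT1, 3.17 to 3.71 in BALB/c iNKT2 and 0.809 to 1.31 in SKG iNKT2 cells. The Ncr1 start, the one most particular to NK cells, held 2.16 to 2.27 CPM in BALB/c iNKT1, 0.449 to 0.514 in SKG iNKT1 and at most 0.135 in any iNKT2 library. These NK cell values moved with the subset, as did the NK receptor regions, and their part in the results was not tested. No B cell or immature thymocyte gene had a start region, and the 1 myeloid gene that did (Itgam) reached 3.91 at most. Replicate 1 of the iNKT2 cells departed from the other replicates in the same way in both genotypes (correlation of deviations from the group means 0.455), so results that depend on it are given without it below.

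The sequences that follow are 5 of the regions or promoters whose accessibility fell from iNKT1 to iNKT2 and that hold the Runx letters AACCACA, or their complement TGTGGTT where the match is on the other strand, in capitals. They are shown because AACCACA was the searched word found in the largest share of the NK receptor regions that fell in both genotypes, together with TGGAAA. The Klre1, Klrk1 and Klra1 promoters are RefSeq sequences of 300 bases over the start, on GRCm38.p6, at chr6:129577963-129578262 (plus strand), chr6:129623815-129624114 (minus strand) and chr6:130386825-130387124 (minus strand). RefSeq promoters matched 7 of the 9 genes by symbol, not Klrd1 and Klrg1. The other 2 are the central 300 bases of an intergenic region between Klre1 and Klrd1 (chr6:129586957-129587256, plus strand) and of an intergenic region next to the 3′ end of Klrg1 (chr6:122270197-122270496, plus strand), each with 2 matches.
Klre1 promoter: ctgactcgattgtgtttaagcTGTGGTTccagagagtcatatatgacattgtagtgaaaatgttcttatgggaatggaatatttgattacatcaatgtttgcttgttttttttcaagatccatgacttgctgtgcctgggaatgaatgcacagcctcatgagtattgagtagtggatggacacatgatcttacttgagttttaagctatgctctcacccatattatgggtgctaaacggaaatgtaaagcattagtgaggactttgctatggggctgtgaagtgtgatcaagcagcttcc
Klrk1 promoter: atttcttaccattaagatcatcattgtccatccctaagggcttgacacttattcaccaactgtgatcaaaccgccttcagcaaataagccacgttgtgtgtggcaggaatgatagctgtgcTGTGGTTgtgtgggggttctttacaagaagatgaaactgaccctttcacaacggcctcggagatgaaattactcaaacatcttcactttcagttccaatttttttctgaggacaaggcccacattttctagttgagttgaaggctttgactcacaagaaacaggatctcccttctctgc
Klra1 promoter: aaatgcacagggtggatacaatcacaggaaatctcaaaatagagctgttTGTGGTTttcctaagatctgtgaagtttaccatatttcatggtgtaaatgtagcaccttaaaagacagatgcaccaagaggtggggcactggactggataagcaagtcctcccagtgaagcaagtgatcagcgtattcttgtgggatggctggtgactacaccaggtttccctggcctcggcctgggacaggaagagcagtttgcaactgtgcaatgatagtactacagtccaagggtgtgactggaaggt
Klre1-Klrd1 intergenic: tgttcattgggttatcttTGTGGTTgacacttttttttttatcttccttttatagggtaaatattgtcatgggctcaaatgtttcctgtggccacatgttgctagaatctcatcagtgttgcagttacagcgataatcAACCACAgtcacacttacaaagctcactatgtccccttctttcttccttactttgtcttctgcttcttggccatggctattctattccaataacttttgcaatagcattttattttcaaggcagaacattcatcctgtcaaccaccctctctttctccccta
Klrg1 3′ side: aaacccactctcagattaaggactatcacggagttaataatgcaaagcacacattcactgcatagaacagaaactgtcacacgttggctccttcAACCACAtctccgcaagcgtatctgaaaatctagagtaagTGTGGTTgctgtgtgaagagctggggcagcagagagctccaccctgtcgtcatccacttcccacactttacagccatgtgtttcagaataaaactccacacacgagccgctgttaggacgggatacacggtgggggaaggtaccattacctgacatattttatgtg

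The Klra1 match belongs to a stretch that recurs in the Ly49 genes. The 57 bases around it are printed for the Klra1 start region (chr6:130387044-130387100), for the strongest Klra7 region (chr6:130237872-130237928) and for a region between Klra3 and Klra1 (chr6:130342255-130342311), all on the plus strand with AACCACA in capitals.
Klra1 start region: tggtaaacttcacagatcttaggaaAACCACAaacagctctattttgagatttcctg
Klra7 region: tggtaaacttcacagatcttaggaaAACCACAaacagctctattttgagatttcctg
Klra3-Klra1 region: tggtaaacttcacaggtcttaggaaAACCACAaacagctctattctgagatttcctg
The Klra1 and Klra7 copies were the same in all 57 bases, and the third copy shared 55 of 57 with each. The central 20 bases occurred 5 times on chromosome 6 of the reference, all in or within 50 kb of the Ly49 cluster, and 3 of the 5 lay in a region of the table, namely these 3.

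Most NK receptor regions were less accessible in iNKT2 than in iNKT1 cells, and none was called more accessible. A region was called when it changed at least 4-fold and its p in edgeR's quasi-likelihood test, adjusted by Benjamini-Hochberg for all 94823 regions, was under 0.01. In BALB/c mice 53 of the 101 regions were called lower in iNKT2, where 6.36% of all regions were, and in SKG mice 56 were, where 6.96% of all regions were. The 2 comparisons use separate libraries, and 48 regions were called lower in both and 61 in at least one. No region was called higher by edgeR, DESeq2 or limma-voom in either genotype, although 15.5% of all regions were called higher in BALB/c iNKT2 and 10.2% in SKG iNKT2. At an unadjusted p under 0.05 in edgeR, 2 and 6 of the 101 were higher, and the share over all regions at that threshold was not determined. In BALB/c and SKG mice the 101 regions had median log2 changes of -2.14 and -2.64, and all regions of 0.06 and 0.14. With library totals in place of TMM factors the medians over all regions moved to 0.34 and 0.32 and those of the 101 regions to -1.87 and -2.46. With quantile normalization the calls over all regions in BALB/c mice split into 9042 higher and 8966 lower in place of 14725 and 6029, and in SKG mice into 4244 higher and 7011 lower in place of 9654 and 6599. In bulk libraries, fewer cells with an open region and fewer insertions per cell cannot be told apart.

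The called regions fell on the 5 stretches as follows. Around Klre1, Klrd1, Klrk1, Klrc2 and Klrc1, 37 of 46 regions were called lower in BALB/c and 37 in SKG mice, with 36 in both and median log2 changes of -3.80 and -3.68. All 3 Klra7 regions were lower in both genotypes. Around Klra1, 7 of 11 were lower in BALB/c and 9 in SKG mice, with 6 in both. Around Klrg1 the counts were 5 and 6 of 19, with 3 in both, and around Klrb1c 1 and 1 of 22, which were different regions. The Klrb1c share, 4.55% in each genotype, was no larger than the 6.36% and 6.96% over all regions. The plot of subset changes by region order shows a block of deep changes from Klre1 to Klrc1 with the Klrb1c regions nearer to 0 on one side and the lowered Klra7 and Klra1 regions on the other.

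**Figure D1:**
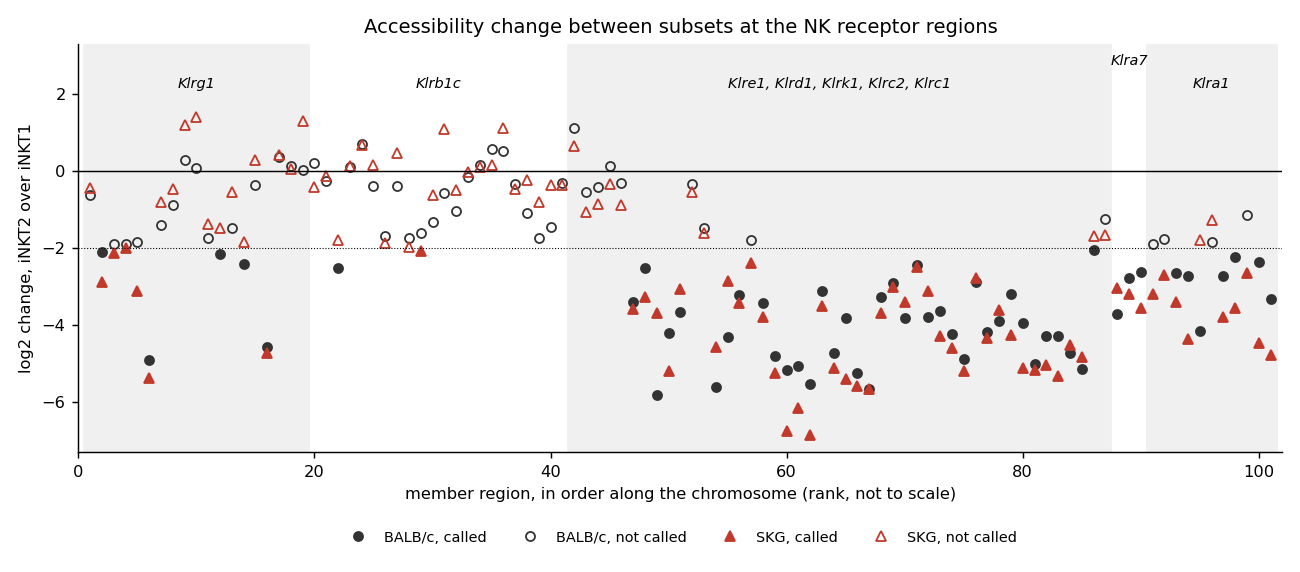
The log2 change in accessibility from iNKT1 to iNKT2 (vertical axis) is plotted for each of the 101 regions in chromosome order (horizontal axis, rank and not distance), with circles for BALB/c mice, triangles for SKG mice, filled symbols for called regions and a dotted line at the 4-fold threshold. The Klrb1c regions lie mostly between -2 and 1, and the regions from Klre1 to Klrc1 mostly between -2 and -7, with filled symbols in both genotypes for 36 of the 46 regions there.

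The deep block was the longest of its kind in the data. Counting neighbouring regions that were called lower in iNKT2 in both genotypes with no other region between them, 28 regions in a row ran over 97.1 kb from inside Klre1 to the Klrc1 start (chr6:129581920-129679066), the longest of 3141 such runs in the whole table. The next longest held 16 regions on chromosome 11 and 15 on chromosome 13, and the median run was 1 region. The run from Klre1 to Klrc1 stayed 28 regions long and ranked first under every other fit and without any 1 library, with 2 exceptions. It held 20 regions when regions under the lower quartile of insertions were left out, and 38 when an adjusted p under 0.05 and 2-fold were enough. The 28 log2 changes ranged from -5.66 to -2.43 in BALB/c mice (median -4.22) and from -6.85 to -2.48 in SKG mice (median -4.71). This stretch is dense in open regions, with 317 per Mb from Klre1 to Klrc1 where the median of chromosome 6 in bins of 500 kb was 19 per Mb. On the side of Klre1, the run ended at an intronic Klre1 region (chr6:129581359-129581676) that was called in SKG mice only, with log2 changes of -1.79 (BALB/c) and -2.38 (SKG). Beyond that region, 2 shorter runs called lower in both genotypes followed. They held 3 regions (chr6:129577817-129581270, with the Klre1 start) and 5 regions (chr6:129545150-129559017). Farther out still, 3 regions at Gabarapl1, a gene of the autophagy machinery, were called in neither genotype. On the other side, the run ended at an intergenic region beyond Klrc1 (chr6:129680131-129680430) that was called in BALB/c mice only. The region after it, at chr6:129680445-129680789, changed by -1.23 and -1.66 and was not called.

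**Figure D2:**
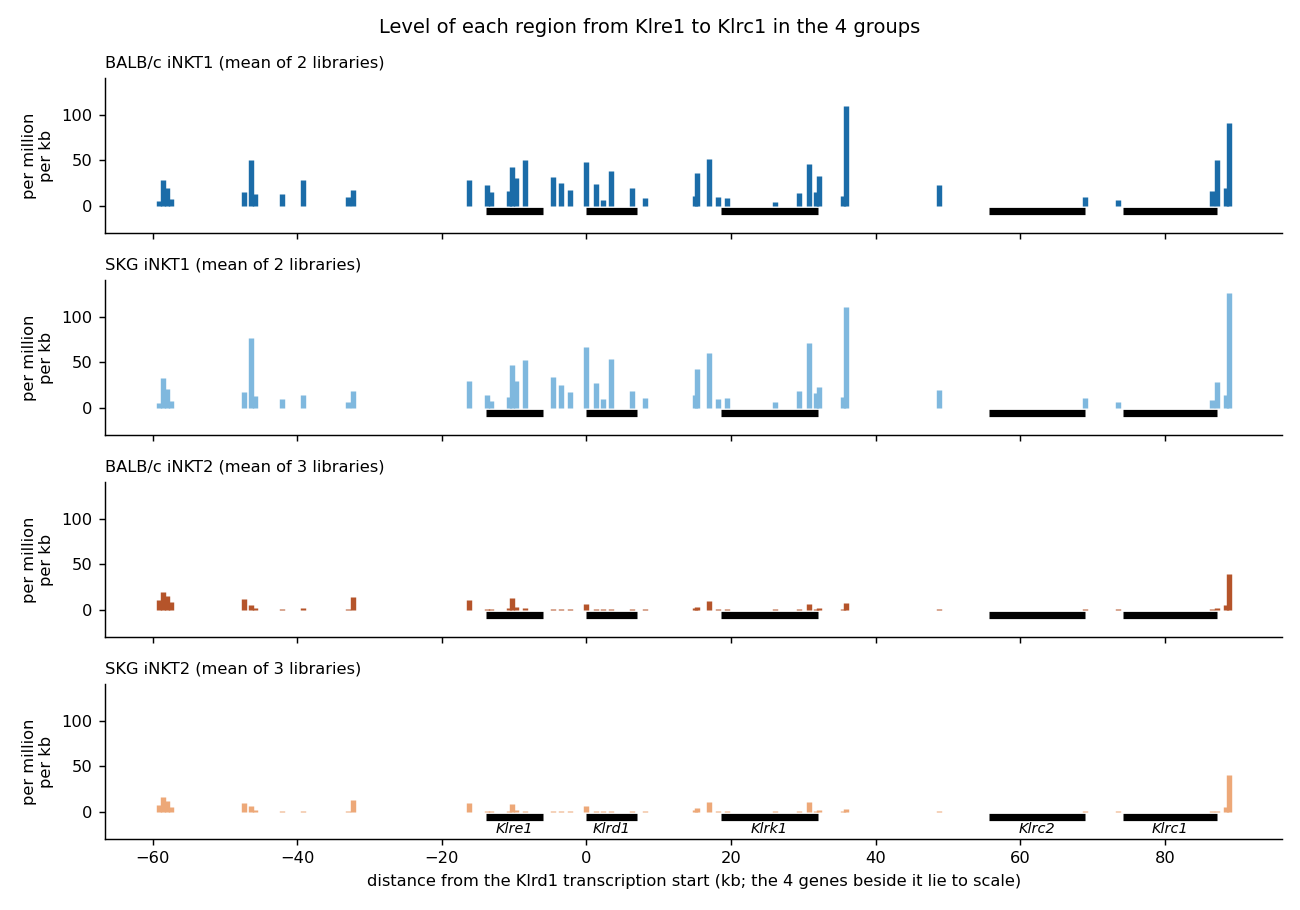
Each line is 1 of the 46 regions from Klre1 to Klrc1, placed by its distance in kb from the Klrd1 transcription start (horizontal axis), and its height is the mean CPM per kb of region (vertical axis) in 1 of the 4 groups; black bars mark the gene bodies. Most lines are taller in both iNKT1 panels than in both iNKT2 panels, and the line over Klrc2 is low in every panel. The tallest line in the iNKT2 panels is the region beyond Klrc1 at chr6:129680445-129680789.

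The Klrd1 start region (chr6:129591430-129591876, reaching into the first coding exon of CD94) held, in CPM, 22.9 and 20.3 in BALB/c iNKT1, 32.96 and 27.1 in SKG iNKT1, 4.52, 1.08 and 1.90 in BALB/c iNKT2, and 3.36, 2.66 and 1.62 in SKG iNKT2. Every iNKT1 library lay above every iNKT2 library. In BALB/c mice the log2 change to iNKT2 was -3.11 ± 0.37 (SE, edgeR adjusted p = 4.37e-06), and in SKG mice it was -3.50 ± 0.38 (edgeR adjusted p = 2.48e-06). The fitted levels were 8.66-fold and 11.4-fold lower in iNKT2. In SKG mice the 3 deepest changes of all 101 regions lay just before this start, between Klre1 and Klrd1, and in both genotypes 2 regions inside Klrd1 were among the 5 deepest. The intergenic region at chr6:129586763-129587451, whose centre is printed above, held 23.6 and 20.4 in BALB/c iNKT1, 25.2 and 21.7 in SKG iNKT1, 1.19, 0.238 and 0.412 in BALB/c iNKT2, and 0.238, 0.0918 and 0.337 in SKG iNKT2. From iNKT1 to iNKT2 the region changed by -5.16 ± 0.37 (log2, SE) in BALB/c mice with an edgeR adjusted p of 3.48e-08, and by -6.75 ± 0.45 in SKG mice with an edgeR adjusted p of 2.50e-08. The next region (chr6:129587826-129588568) covers 2 predicted RefSeq starts of Klrd1, at 129588092 and 129588124, upstream of the GENCODE start. It held 19.4 and 18.1 in BALB/c iNKT1, 20.8 and 15.6 in SKG iNKT1, 1.16, 0.238 and 0.247 in BALB/c iNKT2, and 0.327, 0.230 and 0.135 in SKG iNKT2. The high and low libraries were again split by subset with no overlap. Its log2 changes were -5.07 ± 0.39 (SE) in BALB/c mice and -6.14 ± 0.46 in SKG mice, with edgeR adjusted p of 7.07e-08 and 7.00e-08.

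The third of these, at chr6:129589357-129589683, was weaker, with 6.12 and 5.16 in BALB/c iNKT1, 6.04 and 5.07 in SKG iNKT1, 0.188, 0.0794 and 0.0825 in BALB/c iNKT2, and 0.0297, 0 and 0.135 in SKG iNKT2 CPM. In SKG mice the iNKT2 value rests on 3 insertions against 173 in iNKT1, a ratio of 130 with a 95% exact interval of 43.8 to 637 that covers counting error only. Within Klrd1, the intronic region at chr6:129595010-129595381 held 13.2 and 14.9 in BALB/c iNKT1, 20.9 and 18.8 in SKG iNKT1, 0.533, 0.370 and 0.165 in BALB/c iNKT2, and 0.683, 0.184 and 0.202 in SKG iNKT2. That at the last exons (chr6:129597964-129598299) held 6.57 and 6.70 in BALB/c iNKT1, 7.20 and 4.81 in SKG iNKT1, 0.251, 0.106 and 0 in BALB/c iNKT2, and 0.0891, 0.184 and 0.0674 in SKG iNKT2. Both intragenic regions were thus near 0 in all iNKT2 libraries, more so than the start region itself. Their log2 changes were -5.23 ± 0.35 and -5.66 ± 0.45 (SE) in BALB/c mice and -5.58 ± 0.36 and -5.66 ± 0.49 in SKG mice, with edgeR adjusted p of at most 2.61e-07. Of the 36 regions in the Klrd1 window, 32 were called lower in BALB/c and 33 in SKG mice.

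Klrk1, the NKG2D gene, had regions at both of its annotated starts. The region at the downstream start (chr6:129622310-129622909) held 27.3 and 27.4 in BALB/c iNKT1, 45.5 and 39.7 in SKG iNKT1, 2.82, 4.66 and 3.63 in BALB/c iNKT2, and 5.35, 9.001 and 4.11 in SKG iNKT2. The log2 change from iNKT1 to iNKT2 was -2.88 ± 0.25 (SE) in BALB/c mice (edgeR adjusted p = 2.01e-07) and -2.78 ± 0.25 in SKG mice (edgeR adjusted p = 3.53e-07). The region at the upstream start (chr6:129623827-129624168), which overlaps the printed promoter, held 12.2 and 10.2 in BALB/c iNKT1, 7.07 and 8.72 in SKG iNKT1, 1.10, 0.582 and 0.577 in BALB/c iNKT2, and 1.04, 0.551 and 0.0674 in SKG iNKT2. In BALB/c mice the log2 change to iNKT2 was -3.88 ± 0.39 (SE, edgeR adjusted p = 6.64e-07), and in SKG mice it was -3.61 ± 0.42 (edgeR adjusted p = 4.08e-06). The downstream start was the stronger of the pair in every library and kept more signal in iNKT2 cells, so the fitted levels fell 7.35-fold and 6.86-fold there against 14.7-fold and 12.2-fold at the upstream start. The strongest region by CPM near Klrk1, Klrd1 and Klre1 was intergenic, between Klrd1 and Klrk1 (chr6:129608133-129609247), with 55.1 and 58.9 in BALB/c iNKT1, 65.8 and 68.3 in SKG iNKT1, 13.3, 9.21 and 9.07 in BALB/c iNKT2, and 12.4, 14.4 and 8.90 in SKG iNKT2. Its log2 changes of -2.43 ± 0.19 and -2.48 ± 0.19 were the smallest in the run of 28. This region is 1115 bases wide and held 51.1 (BALB/c) and 60.1 (SKG) CPM per kb in iNKT1 cells. The region at chr6:129627474-129627803 held more per kb there (109 and 111). A coding-exon region inside Klrk1 (chr6:129620910-129621343), with the smallest p in the Klrc2 window, held 5.97 and 5.64 in BALB/c iNKT1, 8.35 and 7.38 in SKG iNKT1, 0.220, 0.159 and 0.206 in BALB/c iNKT2, and 0.297, 0.138 and 0.135 in SKG iNKT2. It changed by -4.88 ± 0.31 and -5.20 ± 0.32 (log2, SE, edgeR adjusted p = 1.28e-08 and 1.62e-08), so the body of Klrk1 changed more than its downstream start. In the Klrk1 window 29 of 31 regions were called lower in BALB/c and 30 in SKG mice.

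The starts of both genes for CD94 partners were lower in iNKT2 cells. At the Klrc1 (NKG2A) start (chr6:129678757-129679066) the values were 13.9 and 17.1 in BALB/c iNKT1, 9.64 and 7.70 in SKG iNKT1, 0.784, 0.265 and 0.247 in BALB/c iNKT2, and 0.327, 0.184 and 0.405 in SKG iNKT2. From iNKT1 to iNKT2 the region changed by -5.13 ± 0.34 (log2, SE) in BALB/c mice with an edgeR adjusted p of 1.82e-08, and by -4.83 ± 0.38 in SKG mice with an edgeR adjusted p of 1.17e-07. At the Klrc2 (NKG2C) start (chr6:129660502-129660809) they were 2.81 and 2.69 in BALB/c iNKT1, 3.85 and 2.89 in SKG iNKT1, 0.251, 0.132 and 0 in BALB/c iNKT2, and 0.149, 0.0918 and 0 in SKG iNKT2. The Klrc2 start was thus open at a much lower level, and it was at 0 in 1 library of each iNKT2 group. Of its words of 31 bases 29.9% occur once in the reference. Its log2 changes were -4.28 ± 0.54 (SE) in BALB/c mice and -5.04 ± 0.61 in SKG mice, with edgeR adjusted p of 7.22e-06 and 6.55e-06. In their windows 6 of 7 Klrc1 regions and 14 of 15 Klrc2 regions were called lower in BALB/c mice, and 5 and 13 in SKG mice. The strongest region of both windows by mean CPM over all libraries, at chr6:129680445-129680789 beyond Klrc1, was called in neither genotype. Its neighbour at chr6:129680131-129680430 was called in BALB/c mice only. The strongest region held 32.3 and 30.2 in BALB/c iNKT1, 43.9 and 43.5 in SKG iNKT1, 13.8, 12.6 and 13.6 in BALB/c iNKT2, and 12.3, 15.9 and 13.2 in SKG iNKT2.

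The Klre1 start (chr6:129577817-129578358, over the 5′ UTR) had, between the BALB/c subsets, the smallest p of all regions near Klre1, Klrd1 and Klrk1. It held 12.8 and 11.8 in BALB/c iNKT1, 8.93 and 5.65 in SKG iNKT1, 0.251, 0.185 and 0.330 in BALB/c iNKT2, and 0.267, 0.321 and 0.337 in SKG iNKT2. Its iNKT2 values did not exceed 0.337 CPM in either genotype, whereas both SKG iNKT1 libraries were below both BALB/c iNKT1 libraries. The log2 change from iNKT1 to iNKT2 was -5.61 ± 0.29 (SE) in BALB/c mice (edgeR adjusted p = 4.29e-09) and -4.58 ± 0.31 in SKG mice (edgeR adjusted p = 2.88e-08). The 2 changes differed by an interaction of 1.03 ± 0.49 with an edgeR adjusted p of 0.255. The genotype difference in iNKT1 cells was -0.75 ± 0.25 (SE) and did not pass the test (edgeR adjusted p = 0.105). In the Klre1 window 31 of 39 regions were called lower in BALB/c and 32 in SKG mice, and the deepest change in BALB/c mice of all 101 regions, -5.82 ± 0.47, was at chr6:129549499-129549807, between Gabarapl1 and Klre1.

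**Figure D3:**
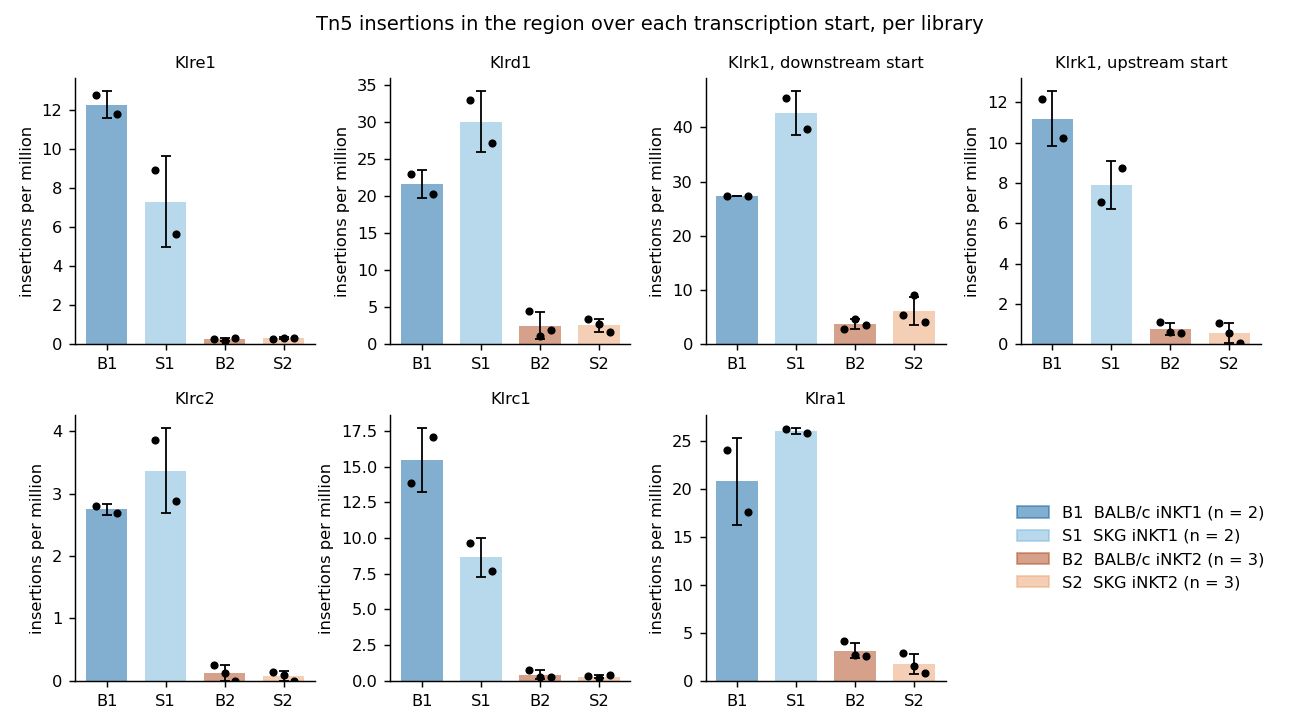
CPM (vertical axis, linear and starting at 0, own scale for each panel) in the 7 regions over an annotated transcription start are plotted for the 4 groups (horizontal axis), with bars for the mean, error bars for the SD and points for single libraries. Every panel shows both iNKT1 groups above both iNKT2 groups, and the Klre1, Klrc2 and Klrc1 starts lie close to 0 in iNKT2 cells.

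Per kb of region, the start levels in BALB/c iNKT1 cells ran from Klrc1 (49.9 ± 7.30 CPM per kb, SD, n = 2) through Klrd1 (48.3 ± 4.16), the downstream Klrk1 start (45.6 ± 0.0536) and Klra1 (39.2 ± 8.57) to the upstream Klrk1 start (32.7 ± 3.99). Klre1 (22.6 ± 1.28) and Klrc2 (8.92 ± 0.272) came last. Neighbours in this order down to the upstream Klrk1 start differed by less than the sum of their SDs, and the steps to Klre1 and to Klrc2 were larger than that. In SKG iNKT1 cells the downstream Klrk1 start (71.0 ± 6.81) and Klrd1 (67.2 ± 9.21) led, followed by Klra1 (49.1 ± 0.650), Klrc1 (27.96 ± 4.42), the upstream Klrk1 start (23.1 ± 3.43), Klre1 (13.4 ± 4.29) and Klrc2 (10.9 ± 2.22). There the steps on either side of Klra1 and the step down to Klre1 were larger than the sum of the SDs. In both iNKT2 groups the downstream Klrk1 start came first, at 6.17 ± 1.53 in BALB/c and 10.3 ± 4.24 in SKG mice, and no 2 neighbours in the order differed by more than the sum of their SDs. Summed over whole windows, levels fell at Klrk1 from 368 ± 9.62 to 35.7 ± 9.34 CPM in BALB/c and from 408 ± 16.1 to 35.4 ± 7.68 in SKG mice. Klrd1 sums fell from 424 ± 13.3 to 48.7 ± 9.41 and from 472 ± 14.1 to 47.6 ± 7.01 (SD, n = 2 in iNKT1 and n = 3 in iNKT2). In the same order, BALB/c first, the Klre1 sums went from 435 ± 14.6 to 69.9 ± 5.86 and from 487 ± 19.4 to 63.8 ± 7.36. Klrc2 sums went from 175 ± 0.0964 to 24.2 ± 3.18 and from 191 ± 3.92 to 24.7 ± 4.08. Klrc1 sums went from 78.02 ± 1.49 to 16.1 ± 1.74 and from 77.7 ± 3.08 to 16.04 ± 1.91. In all 5 windows every iNKT1 library was above every iNKT2 library. The windows of these genes share regions, so these sums are not independent.

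The windows of the Ly49 genes held few regions, and all 3 at Klra7 and 7 (BALB/c) and 9 (SKG) of 11 at Klra1 were called lower in iNKT2 cells. The Klra1 (Ly49A) start region (chr6:130386739-130387268, over the 5′ UTR) held 24.01 and 17.6 in BALB/c iNKT1, 26.3 and 25.8 in SKG iNKT1, 4.11, 2.751 and 2.64 in BALB/c iNKT2, and 2.91, 1.52 and 0.809 in SKG iNKT2. No iNKT2 library reached the iNKT1 range. In BALB/c mice the log2 change to iNKT2 was -2.71 ± 0.30 (SE, edgeR adjusted p = 1.76e-06), and in SKG mice it was -3.78 ± 0.32 (edgeR adjusted p = 2.04e-07). Klra7 (Ly49G) had no region over its start or gene body, and its strongest region lay upstream at chr6:130237574-130238068. That region held 14.9 and 14.1 in BALB/c iNKT1, 18.1 and 16.8 in SKG iNKT1, 3.61, 1.43 and 1.98 in BALB/c iNKT2, and 1.84, 1.01 and 1.55 in SKG iNKT2. From iNKT1 to iNKT2 the region changed by -2.63 ± 0.29 (log2, SE) in BALB/c mice with an edgeR adjusted p of 1.83e-06, and by -3.55 ± 0.31 in SKG mice with an edgeR adjusted p of 3.01e-07. The region between Klra3 and Klra1 (chr6:130342077-130342765), which had the smallest p in the Klra1 window, held 16.3 and 14.02 in BALB/c iNKT1, 17.4 and 16.5 in SKG iNKT1, 2.92, 2.25 and 2.02 in BALB/c iNKT2, and 1.96, 1.29 and 1.48 in SKG iNKT2. These 3 regions carry the shared 57-base stretch. Their levels were similar, with fitted drops of 6.56-fold, 6.19-fold and 6.30-fold in BALB/c mice and 13.8-fold, 11.7-fold and 10.5-fold in SKG mice. The difference between the genotypes in these changes did not pass the test at any of the 3 (interaction, edgeR adjusted p = 0.188, 0.254 and 0.200). The 4 regions at Klra5, which hold no exact copy of the central 20 bases, had median log2 changes of -2.63 and -3.40. The part of the stretch in these changes was not tested. The whole Ly49 cluster held 20 regions in 0.556 Mb. Window sums were 65.0 ± 10.1 (SD) in BALB/c iNKT1, 71.6 ± 1.98 in SKG iNKT1, 11.7 ± 2.85 in BALB/c iNKT2 and 5.83 ± 1.44 in SKG iNKT2 cells for Klra1. For Klra7 they were 19.97 ± 0.690, 21.3 ± 0.566, 3.06 ± 1.40 and 1.88 ± 0.352. In the cluster as a whole, a second run of neighbouring regions called lower in both genotypes held 12 regions (chr6:129911331-130334166), 3 of them in the windows studied here.

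The share of regions called lower around Klrb1c was no larger than that over all regions. The gene had no region over its start or gene body. Of the 22 regions in its window 1 (4.55%) was called lower in BALB/c and 1 in SKG iNKT2 cells, where 6.36% and 6.96% of all regions were. The median log2 changes were -0.38 and -0.30. The region with the smallest p was intergenic (chr6:128835577-128836995) and held 78.2 and 93.9 in BALB/c iNKT1, 67.5 and 74.2 in SKG iNKT1, 25.4, 25.8 and 25.4 in BALB/c iNKT2, and 39.6, 36.05 and 45.6 in SKG iNKT2. All iNKT1 libraries were above all iNKT2 libraries, and the SKG iNKT2 libraries above the BALB/c ones. Its log2 changes were -1.75 ± 0.13 (SE) in BALB/c mice and -0.81 ± 0.13 in SKG mice, with edgeR adjusted p of 5.99e-08 and 1.33e-04. The drop was below 4-fold in both genotypes, so the region was not called, and the interaction gave 0.94 ± 0.19 with an edgeR adjusted p of 0.0140. A second intergenic region nearby (chr6:128838009-128839886) had the highest mean CPM of the window over all libraries. By group mean it led in SKG iNKT1 cells only. It held 71.4 and 65.3 in BALB/c iNKT1, 86.5 and 79.5 in SKG iNKT1, 43.8, 58.1 and 63.2 in BALB/c iNKT2, and 59.1, 72.4 and 61.7 in SKG iNKT2. Between the subsets it did not pass the test (edgeR adjusted p = 0.0883 and 0.0592). Summed over the window, levels were 501 ± 24.2 in BALB/c iNKT1, 520 ± 24.5 in SKG iNKT1, 362 ± 70.7 in BALB/c iNKT2 and 448 ± 57.3 in SKG iNKT2 cells. The iNKT2 spread came from replicate 1, which was lowest in both genotypes, at 280 where the other BALB/c libraries had 399 and 406 and at 382 where the other SKG libraries had 477 and 485.

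Klrg1 had 1 region in its gene body and none over its start, and its window mixed regions of several kinds. The smallest p belonged to the intergenic region next to the 3′ end printed above (chr6:122270171-122270524), which held 32.9 and 31.7 in BALB/c iNKT1, 35.5 and 36.2 in SKG iNKT1, 9.82, 7.99 and 8.37 in BALB/c iNKT2, and 9.15, 9.37 and 8.16 in SKG iNKT2. The groups split by subset with no overlap. The log2 change from iNKT1 to iNKT2 was -1.89 ± 0.14 (SE) in BALB/c mice (edgeR adjusted p = 5.85e-08) and -2.01 ± 0.15 in SKG mice (edgeR adjusted p = 5.68e-08). The SKG value sat at the 4-fold threshold and fell under it in 6 alternatives (-1.67 to -1.99), among them those without SKG iNKT1 replicate 2 (-1.99) and without SKG iNKT2 replicate 3 (-1.95). Regions at chr6:122284866-122285182 and chr6:122302665-122303068 were called in both genotypes and changed most, by -4.90 ± 0.59 and -4.57 ± 0.40 in BALB/c and by -5.36 ± 0.69 and -4.73 ± 0.41 in SKG mice. Both were picked after their values were seen. The strongest region of the window was over the UTR of the neighbouring M6pr (chr6:122308510-122309370), a mannose 6-phosphate receptor gene, at 141 and 162 in BALB/c iNKT1, 192 and 176 in SKG iNKT1, 119, 178 and 200 in BALB/c iNKT2, and 130, 225 and 221 in SKG iNKT2. Its subset change did not pass the test (edgeR adjusted p = 0.632 and 0.836). Replicate 1 of iNKT2 was lowest there in both genotypes, and also in the window sum, at 188 against 259 and 274 in BALB/c and 232 against 336 and 329 in SKG mice.

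No NK receptor region was called between the genotypes. In iNKT1 cells edgeR, DESeq2 and limma-voom called 0 of 101 (1.01% of all regions in edgeR), with 8 lower and 6 higher in SKG mice at an unadjusted p under 0.05 and a smallest adjusted p of 0.0410. In iNKT2 cells edgeR and limma-voom called 0 of 101, where 4.99% of all regions were called in edgeR, with 13 lower and 20 higher at an unadjusted p under 0.05; DESeq2 called 1 lower. The test of whether the genotype difference itself differed between the subsets gave 0 calls in edgeR and limma-voom (0.529% of all regions in edgeR). At an unadjusted p under 0.05 in edgeR, 7 were lower and 17 higher, and DESeq2 called 1 lower. For the counts at an unadjusted p under 0.05, the shares over all regions were not determined, so they have no background here. The region that DESeq2 called in iNKT2 cells lies between Gabarapl1 and Klre1 (chr6:129552474-129552819), with a log2 change of -1.99 ± 0.52 (SE) and an adjusted p of 0.0105 in edgeR. It was also called with the replicate number as a block (-2.06) and without SKG iNKT2 replicate 1 (-3.12). Leaving that library out also added 2 calls of lower accessibility in SKG iNKT2 cells, at chr6:129627474-129627803 (-2.51) and chr6:130340245-130340678 (-2.45). The interaction call of DESeq2, at chr6:130419194-130419533 near Klra1, was also made with the replicate block (-2.18) and without that library (-2.39).

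In iNKT2 cells some smaller differences between the genotypes passed the adjusted p alone in the main fit. They were higher in SKG mice at Klrg1 and Klrb1c and lower at Klra1. By the adjusted p alone, without the 4-fold condition, 7 of 101 regions were higher in SKG iNKT2 cells, where 4.02% of all regions were, and 3 were lower, where 10.1% of all regions were. The 7 higher regions were 4 at Klrg1 and 3 at Klrb1c, and all 3 lower regions lay in the Klra1 window; these regions were singled out after their values were seen. Median log2 differences in iNKT2 cells were 0.23 around Klrg1, 0.37 around Klrb1c, -0.22 from Klre1 to Klrc1, -0.64 around Klra7 and -1.25 around Klra1, with 0.01 over all regions, whereas in iNKT1 cells they were 0.15, -0.03, 0.06, -0.43 and 0.08. In the main fit 0 regions passed the adjusted p alone in iNKT1 cells. When only the 2 groups compared were fitted, 9 passed it in iNKT1 and 6 in iNKT2 cells. The shares of all regions passing it in those fits were not determined. No reversal of direction was seen at the 10 regions of the main fit in any of the 17 alternatives. The threshold was kept in every alternative by 2 of them, and 5 kept it without any 1 library. Leaving out any 1 of the 10 libraries took the adjusted p of between 1 and 5 of the other 5 above 0.01, BALB/c iNKT2 replicate 3 that of all 5.

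The 5 that did not depend on a single library are given in full. At Klrg1, the region at chr6:122291488-122292132 held 19.7 and 18.2 in BALB/c iNKT1, 16.96 and 17.6 in SKG iNKT1, 18.6, 26.6 and 24.5 in BALB/c iNKT2, and 35.9, 43.6 and 40.1 in SKG iNKT2. The 3 SKG iNKT2 libraries were the highest of all 10, and the log2 difference was 0.78 ± 0.14 (SE, edgeR adjusted p = 9.54e-04). Its neighbour at chr6:122292220-122292581 held 3.26 and 2.64 in BALB/c iNKT1, 2.51 and 3.14 in SKG iNKT1, 2.70, 4.18 and 2.51 in BALB/c iNKT2, and 6.86, 7.72 and 7.96 in SKG iNKT2. There too SKG iNKT2 libraries stood above all others, with a log2 difference from BALB/c iNKT2 of 1.24 ± 0.22 (edgeR adjusted p = 6.71e-04). The third is the Klrb1c region at chr6:128835577-128836995 given above, with a log2 difference of 0.66 ± 0.12 (edgeR adjusted p = 0.00112). In the Klra1 window, the region at chr6:130340245-130340678 held 5.62 and 4.58 in BALB/c iNKT1, 2.96 and 2.76 in SKG iNKT1, 1.85, 1.32 and 1.36 in BALB/c iNKT2, and 0.654, 0.276 and 0.270 in SKG iNKT2. SKG libraries were below the BALB/c ones in both subsets there, with a log2 difference of -1.78 ± 0.34 in iNKT2 cells (edgeR adjusted p = 0.00142) and of -0.84 ± 0.33 in iNKT1 cells, where it did not pass the test (adjusted p = 0.181). The region at chr6:130419194-130419533 held 8.004 and 6.35 in BALB/c iNKT1, 10.3 and 10.3 in SKG iNKT1, 1.82, 1.11 and 1.28 in BALB/c iNKT2, and 0.565, 0.505 and 0.202 in SKG iNKT2. In iNKT2 cells it was lower in SKG mice, with a log2 difference of -1.60 ± 0.32 (edgeR adjusted p = 0.00206), while the SKG iNKT1 libraries were above the BALB/c ones. The interaction of genotype and subset gave an adjusted p of 0.0126 in edgeR. Of the NK cell markers, Gzma was also lowest in SKG iNKT2 cells (mean 0.926, against 3.41 in BALB/c iNKT2), whereas Ncr1 was near 0 in both iNKT2 groups (means 0.0549 and 0.0297). Their part in these Klra1 values was not tested.

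**Figure D4:**
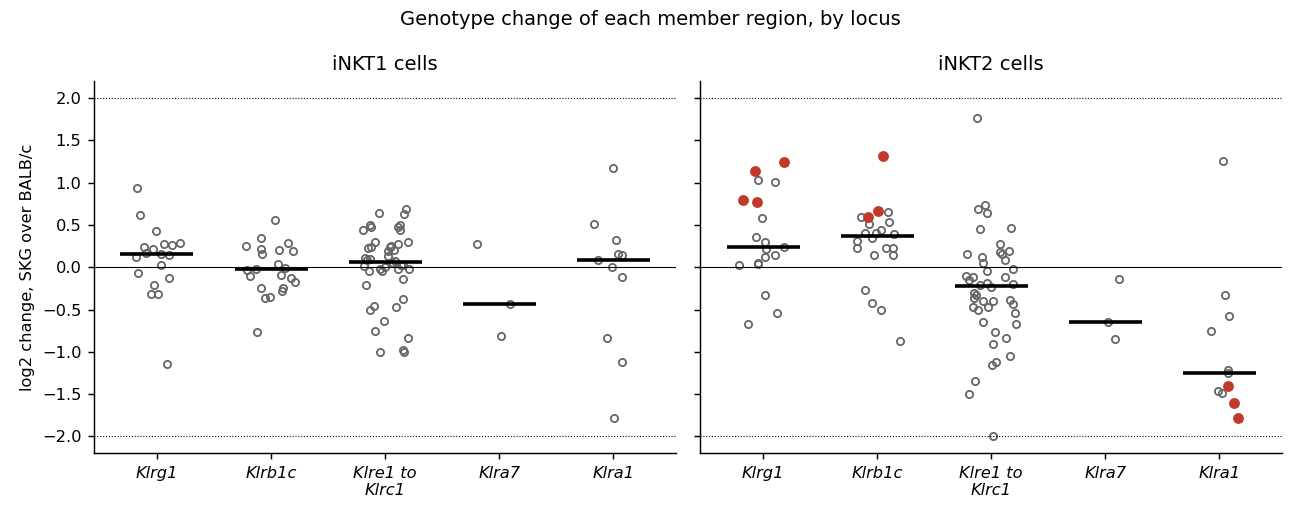
The log2 change from BALB/c to SKG mice (vertical axis) is plotted for each region by stretch of the complex (horizontal axis) in iNKT1 cells (left) and iNKT2 cells (right), with filled points for an edgeR adjusted p under 0.01, bars for the median and dotted lines at 4-fold. Filled points appear on the iNKT2 side only, 7 above 0 at Klrg1 and Klrb1c and 3 below 0 at Klra1, and no region passes a dotted line.

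How uniquely reads can be placed varied along the complex. Of all words of 31 bases in the regions, the share that occurs once in the reference chromosomes was 95.5% around Klrg1, 96.5% from Klre1 to Klrc1, 81.9% around Klrb1c, 81.8% around Klra7 and 75.1% around Klra1. The Klrc2 start region was the lowest of all, at 29.9%, and the regions between Klra3 and Klra1 at chr6:130342077-130342765 and at chr6:130340245-130340678 had 45.2% and 64.1%. Over gene bodies the share was 33.1% in Klrc2 and 39.4% in Klrc1, against 97.5% in Klre1, 92.1% in Klrd1, 89.4% in Klrg1, 88.0% in Klrk1, 84.3% in Klra1, 78.6% in Klrb1c and 70.8% in Klra7. Reads that could not be placed uniquely had been discarded, and the part of this in the levels was not tested. The Klrc1 start region itself had a share of 100%, above that of the Klrc1 gene body. By the study's methods all 4 groups share the BALB/c background, and how far BALB/c differences from the reference change these levels was not tested.

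Other genes of the same receptor systems were described by counts of regions within 10 kb of a start or in the gene body. Of 24 other lectin-like genes of the complex, 15 had regions, 54 in all. Of these 54, 19 were called lower in BALB/c and 22 in SKG iNKT2 cells and 0 higher, and of the 47 that lie outside the windows above 16 and 17 were lower, where 6.36% and 6.96% of all regions were. Klri2, which encodes a partner of KLRE1, had 3 of 3 regions lower in both genotypes (median log2 changes -4.54 and -4.45), Klra5 4 of 4 (-2.63 and -3.40) and Klrc3, the NKG2E gene, 1 of 1. Cd69, an early activation gene at the edge of the complex, had 3 of 9 and 1 of 9 lower. None was called among the 12 regions of Clec2d, Clec2i, Clec2g and Clec2e, of which Clec2d and its relatives encode ligands of NKR-P1 receptors. Between genotypes, 4 of these 54 regions were called lower in SKG iNKT2 cells, where 4.73% of all regions were, 1 at Klrb1, 2 at Klrb1a and 1 at Klra17.

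Among 11 adapter and signalling genes with 126 regions, 29 were called higher and 7 lower in BALB/c iNKT2 cells, and 22 and 5 in SKG iNKT2 cells. Over all regions 15.5% were higher and 6.36% lower in BALB/c and 10.2% and 6.96% in SKG mice, so the lower counts were no larger a share than in the whole table. The higher ones were mainly at Cd247, the CD3 zeta gene, with 25 of 50 regions in BALB/c and 14 in SKG mice. Of the other adapters that pair with activating NK receptors, 2 of 3 regions were lower at Fcer1g (the Fc receptor gamma chain) in both genotypes. In BALB/c and SKG mice 3 and 2 of 8 were lower in the stretch shared by Hcst (DAP10, the partner of NKG2D) and Tyrobp (DAP12), which are neighbours. Between genotypes 7 of the 126 regions (of all regions 4.73%) were called lower in SKG iNKT2 cells and 0 higher (of all regions 0.252%). Of 53 regions at ligand genes, 3 were lower in BALB/c and 4 lower and 1 higher in SKG mice, all at Cdh1, the E-cadherin gene. The lower counts were close to the shares over all regions (6.36% and 6.96%). The higher counts, 0 in BALB/c and 1 in SKG mice, were below those shares (15.5% and 10.2%). In edgeR 0 of 6 were called at H2-T23, the Qa-1 gene.

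Across all 10 libraries, the genes outside these windows whose start regions were most like those of the NK receptors, by Pearson r of log2(CPM + 1), were Fcer1g for Klrc1 (0.994) and Klre1 (0.990) and Ifng for Klrc2 (0.995). They were Fgr, a Src-family kinase gene, for the upstream Klrk1 start (0.996), Dvl3 for the downstream one (0.990), Idh3b for Klrd1 (0.994) and Nek6 for Klra1 (0.992). Slamf7, a SLAM-family receptor gene, was among the 3 most like both the upstream Klrk1 start (0.993) and Klra1 (0.991). The 10 points fall into the 2 subsets and share library and depth, so the values are given as a description only.

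The words of 7 transcription factor families were searched on both strands in the central 300 bases of each region. AACCACA (Runx) was in 33.3% of the 48 NK receptor regions lower in both genotypes, 15% of the 40 called in neither, 23.9% of all 4585 regions lower in both and 13.2% of all regions; 5.27% of all RefSeq promoters hold it. The 16 regions with it were 8 of 36 from Klre1 to Klrc1, 5 of 6 around Klra1, 1 of 3 around Klra7 and 2 of 3 around Klrg1, and the Ly49 ones include the copied stretch. AGGTGTGA (T-box) was in 4.17% of the 48, which are 2 regions, against 9.12% of all regions lower in both and 1.91% of all regions, and AGGAAGT (Ets) in 10.4% against 28.3% and 17.3%. TGGAAA (NFAT) was in 33.3%, against 20.1% and 23.4%, and ATCAAAG (Tcf) in 10.4%, against 4.62% and 5.74%. GCGTGGGCG (Egr) and GGGANTTCC (NF-kB) were in none of the 48, and in 0.346% and 1.67% of all regions. No test was made of these shares, and a match does not show that a factor was bound.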

How the data were processed

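The 10 ATAC-seq libraries of thymic iNKT subsets were grouped by their GEO labels. According to the study's methods and the submitters' processing notes, the authors aligned reads to mm10 with Bowtie 1.0 keeping unique alignments, trimmed those left unaligned with Trim Galore and aligned them again, merged both sets, removed duplicates with Picard and mitochondrial reads, called summits with MACS2 on sub-nucleosomal fragments of each replicate, and merged the expanded summits into one set of regions without chromosome Y and blacklisted sequence. The deposited values are counts of Tn5 insertions per region, whole numbers that were not scaled, although the table is named as normalized. Aligning BALB/c reads to the C57BL/6J reference and discarding repeated reads can lower counts where the haplotypes differ or genes are duplicated.

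Counts of all 94823 regions in the 10 libraries were fitted with edgeR 4.0.16 (quasi-likelihood test, TMM factors, 1 mean per group, no filter on low counts) in R 4.3.3, with 5 contrasts and Benjamini-Hochberg adjustment over all regions. Regions were called at an adjusted p under 0.01 and at least 4-fold. The script was tested on simulated data with known changes. DESeq2 1.42.0, limma 3.58.1 (voom, also with quantile normalization), library totals, removal of regions below the first quartile of the mean count (36.2), looser thresholds (0.05 and 2-fold), fits of single pairs of groups, a replicate block, a 10 kb window and leaving out each library were the alternatives. The values of the deposited counts limit precision: 88 of the 101 regions had an insertion in every library, and the smallest group sum was 3 insertions. Intervals of such ratios are exact 95% binomial intervals and cover counting error only.

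The main fit did not pair libraries, and replicate numbers entered only the alternative with a replicate block, which covered all libraries. Between the iNKT2 libraries of the 2 genotypes, deviations from the group means correlated over regions at 0.455, 0.142 and 0.166 in the 3 same-numbered pairs. Numbers 2 and 3 were not told apart by this, as the crossed pairs gave 0.147 and 0.224. In iNKT1 cells the correlation was -0.002. Named regions were, for each gene, that over a coding start, that of smallest p between BALB/c subsets, that of highest mean level and any called between genotypes, with up to 5 called regions of largest change; others were chosen after their values were seen, as said beside them or where they mark the edge of a run. The genes, windows and lists were chosen with earlier results of these data known. Annotations are GENCODE on GRCm38 and sequences RefSeq GRCm38.p6, 1-based. Tables used Python 3.11.15 and pandas 2.3.3. iNKT17 cells were not analysed here.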

Additional observations from a re-analysis of the deposited data

How the results depend on the processing

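No result changed direction. The counts of regions lower in iNKT2 stayed within 1.5 times of 53 (BALB/c) and 56 (SKG) under DESeq2, voom, quantile normalization, library totals, single pairs of groups and the replicate block (53 and 54). A filter on low counts left 81 regions, with 35 lower in BALB/c mice, where 3579 of all 71183 regions kept were. A 10 kb window left 48, with 34 and 35 lower, where 6.36% and 6.96% of all regions were. Both alternatives test fewer regions. With an adjusted p under 0.05 and 2-fold, 1 region was higher in BALB/c and 5 in SKG iNKT2 cells, 1 was lower in SKG than in BALB/c iNKT1 cells, 4 were lower and 4 higher in SKG than in BALB/c iNKT2 cells, and 1 had a lower interaction. The shares over all regions at these looser thresholds were not determined, so those counts have no background here. In SKG against BALB/c iNKT2 cells, 1 region was lower with DESeq2 and 1 with the replicate block, and 1 was higher with quantile normalization; the interaction gave 1 lower with DESeq2 and 1 with the block. The cause of these shifts was not tested. The block changed no other call between genotypes.

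Leaving out 1 library at a time gave 50 to 54 regions lower in BALB/c and 55 to 56 in SKG iNKT2 cells, 0 to 3 lower between genotypes in iNKT2 cells and 0 to 1 lower in the interaction, the 3 and the 1 without SKG iNKT2 replicate 1.

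Without TMM factors the summed levels of iNKT1 cells were lower, in BALB/c and SKG mice 460 and 468 at Klrb1c, 390 and 424 at Klrd1, 338 and 367 at Klrk1, 71.7 and 69.9 at Klrc1, 161 and 172 at Klrc2, 399.6 and 438 at Klre1, 18.4 and 19.2 at Klra7, 290.0 and 322 at Klrg1, and 1299.5 and 1381 over all regions. The Klra1 sum was 64.4 in SKG iNKT1 cells, and in BALB/c iNKT2 cells the sums were higher at Klrc1 (18.02) and Klre1 (78.2). Precision is limited by 2 or 3 libraries per group and, at the weakest regions, by a few insertions.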
